A study of Caenorhabditis elegans with 33 samples.

Results

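The gene argk-1 (WBGene00009706) of *Caenorhabditis elegans* encodes an arginine kinase, and its RNA was followed in worms raised on 11 kinds of *Escherichia coli*. It is 1 of 18811 gene symbols in the deposited tables and was found by that symbol in all 33 libraries. It was picked because it stood higher than in the reference diet in several mutant diets, so its own levels and fold changes are descriptions of these libraries and carry no test. On the WBcel235 build, argk-1 lies on chromosome V from 16103894 to 16105952 on the plus strand. The annotation gives it 1 transcript of 4 exons with 1213 exon bases, of which 1116 are coding, for a protein of 372 amino acids. No annotated gene overlaps it on either strand.

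Arginine kinases belong to the phosphagen kinases, which move a phosphate group between ATP and a guanidino compound. Phosphoarginine is the invertebrate counterpart of the phosphocreatine of vertebrate muscle: it stores phosphate when ATP is plentiful and gives it back when ATP is used quickly. In *C. elegans*, ARGK-1 protein is known to be abundant in long-lived animals that lack the S6 kinase rsks-1, and a part of that long life is known to need argk-1 and the AMP-activated kinase aak-2.

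All worms were wild-type N2, a laboratory strain, taken as synchronized adults, and total RNA of the whole body was extracted with Trizol and sequenced on a DNBSEQ instrument. The reference group ate BW25113, the parent strain of a widely used *E. coli* deletion collection, and the other groups ate the bacterial mutants crl, iaaA, purH, torY, yccU, ycdC, ycgJ, yghZ, yjgU or ypdF, with 3 libraries per diet. The titles read yjgU where the treatment labels read yigU, so the identity of that mutant is uncertain. By its title, the series asks how genetic variation of gut microbes bears on social behavior. Nothing in the labels says how old the adults were, how many went into a library, or whether replicates were grown apart, so each p-value speaks only of the spread among these libraries, which may be technical.

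Library totals lay between 20.5 M and 22.7 M (M, 1e6) expected counts, the authors' estimated read counts. Levels are given as CPM, counts per 1e6 on library sizes scaled by TMM (a factor that aligns the bulk of genes between libraries, here 0.661 to 1.90), and as the deposited TPM, a level per transcript length. Replicate 1 of purH stood apart from the rest: it had the highest scaling factor, and across genes its correlation with the other purH libraries was 0.821 and 0.869 where the median over replicate pairs was 0.956. A total of 14696 genes passed the filter on low counts and were tested, argk-1 among them. All 10 mutant diets were compared with the same 3 BW25113 libraries, so the comparisons are not independent of each other. RNA came from whole animals, so a change in the number of cells that make a transcript and a change in the RNA per cell cannot be told apart.

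argk-1 was low on BW25113 and higher, by the mean, on every mutant diet. The 3 BW25113 libraries held 16.4, 11.8 and 9.97 CPM in the order of their replicate numbers, from 192 to 281 expected counts. Over all libraries the level ran from 9.97 to 123 CPM, a 12.4-fold range, and the expected counts from 188 to 3274. The lowest library of all was a BW25113 library, and 25 of the 30 mutant libraries lay above the highest BW25113 library. The mean over the 33 libraries was 46.1 CPM, higher than that of 83.3% of the genes tested.

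3 diets stood at the top. Worms fed yccU had 122, 53.96 and 80.8 CPM, with a mean of 85.7 ± 34.4 (SD, n = 3) against 12.7 ± 3.31 (SD, n = 3) on BW25113, 6.74 times as high. Worms fed torY had 41.9, 69.7 and 123 CPM, with a mean of 78.3 ± 41.4 (SD, n = 3). Worms fed ycgJ had 57.4, 105 and 71.9 CPM, with a mean of 78.2 ± 24.7 (SD, n = 3). All 9 of these libraries were above every BW25113 library, and the 3 diets overlapped each other. The log2 fold changes from the fit were 2.75 for yccU, 2.62 for torY and 2.62 for ycgJ.

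iaaA and purH followed, each with 2 high libraries and 1 low one. The iaaA libraries held 87.5, 72.8 and 25.3 CPM, a mean of 61.8 ± 32.5 (SD, n = 3). The purH libraries held 14.0, 89.3 and 65.8 CPM, a mean of 56.3 ± 38.5 (SD, n = 3). The low iaaA library was still above all BW25113 libraries, whereas the low purH library, the one that stands apart, lay within their range. The log2 fold changes were 2.28 for iaaA and 2.15 for purH, and 2.66 for purH without its replicate 1.

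The middle of the order held yghZ and yjgU, whose libraries agreed closely, and ypdF, whose libraries did not. The yghZ libraries had 38.4, 24.9 and 29.9 CPM (mean 31.1 ± 6.86, SD, n = 3; log2 fold change 1.29). The yjgU libraries had 32.0, 28.8 and 28.9 CPM (mean 29.9 ± 1.84, SD, n = 3; log2 fold change 1.23). Every yghZ and yjgU library was above every BW25113 library. The ypdF libraries had 18.2, 73.1 and 11.1 CPM, so that their mean of 34.1 ± 34.0 (SD, n = 3) rests on replicate 2. The ypdF log2 fold change of 1.43 became 0.20 without that library and 1.85 without replicate 3.

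crl and ycdC were nearest to BW25113. The crl libraries had 12.9, 33.2 and 12.7 CPM (mean 19.6 ± 11.8, SD, n = 3). The ycdC libraries had 20.6, 22.5 and 15.6 CPM (mean 19.6 ± 3.56, SD, n = 3). Replicates 1 and 3 of crl lay inside the BW25113 range, and the log2 fold change of 0.63 became 0.0077 without crl replicate 2. For ycdC it was 0.62, and 1 of its 3 libraries lay inside the BW25113 range.

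In the order of diet means, every diet overlapped its neighbour, so no step between neighbours exceeds the spread of the libraries, and 34 of all 55 pairs of diets overlapped. The lowest mutant library was above the highest BW25113 library in 6 of 10 diets by CPM: yccU, torY, ycgJ, iaaA, yghZ and yjgU. Such a gap upwards was seen in 19.2% of the genes tested in yccU, 25.5% in torY, 5.74% in ycgJ, 2.47% in iaaA, 9.05% in yghZ and 15.1% in yjgU. In the diets where argk-1 had no such gap it was seen in 5.93% of genes in purH, 1.63% in ypdF, 5.07% in crl and 5.93% in ycdC. Since argk-1 was picked from these comparisons, nothing is read from these shares. By log2 fold change argk-1 ranked 188 of 14696 genes in iaaA and 241 in ycgJ, but 1183 in yccU and 1436 in torY, where many other genes were higher too.

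**Figure D1:**
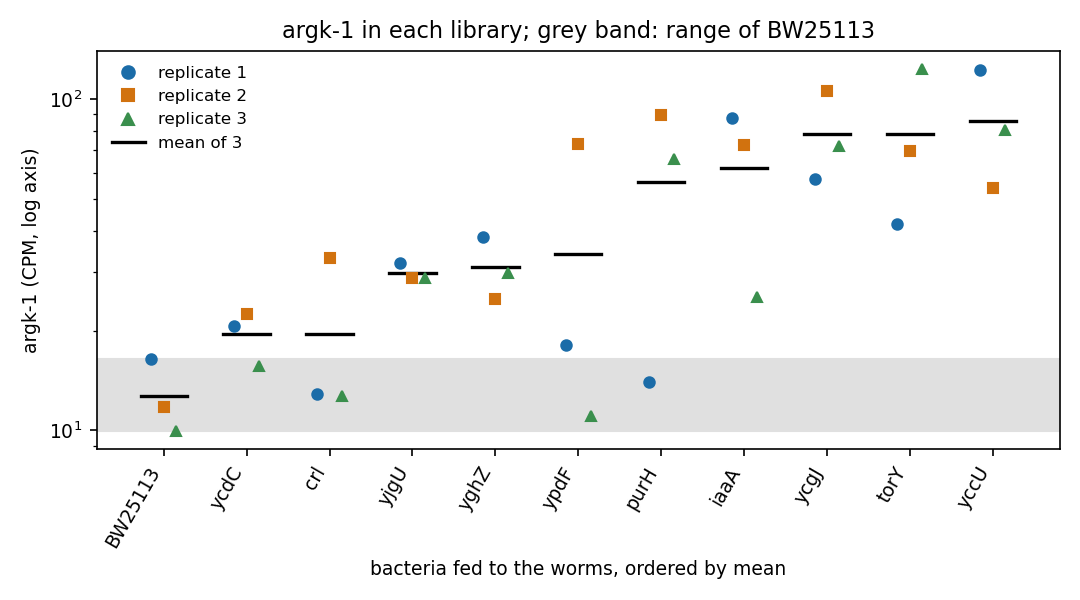
Level of argk-1 in each of the 33 libraries (CPM, log axis) by the bacteria fed, ordered by diet mean. Points are libraries by replicate number, black bars are means of 3 and the grey band is the range of BW25113, 9.97 to 16.4 CPM; 5 mutant libraries fall within or below that band and ypdF, purH and crl each hold libraries far apart.

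The deposited TPM gave a similar order with ycgJ on top. Mean TPM was 7.88 ± 1.398 on BW25113 and 77.1 ± 43.2 on ycgJ (SD, n = 3 each). It was 63.1 ± 30.6 on yccU, 60.3 ± 39.3 on torY and 58.7 ± 41.7 on iaaA (SD, n = 3 each). By TPM the lowest mutant library was above the highest BW25113 library in 8 of 10 diets, now with purH and ycdC among them. The share of all genes tested with such a gap by TPM was 18% in yccU, 24.3% in torY, 14.4% in ycgJ, 4.61% in iaaA, 22.7% in yghZ and 15.5% in yjgU. It was 5.63% in purH and 11.9% in ycdC, and in the diets without a gap in argk-1 it was 12.1% in crl and 4.87% in ypdF.

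The size of the lower fold changes moved with the scaling. With plain library totals the log2 fold change was 1.31 in ycdC, 1.096 in crl and 1.96 in yghZ, and from log2(TPM + 1) it was 1.03 in ycdC. Plain totals also moved the median of all genes, by 0.62 in ycdC, 0.37 in crl and 0.61 in yghZ. Relative to that median argk-1 stood at 0.60 in ycdC with plain totals and 0.54 with TMM, at 0.71 and 0.61 in crl, and at 1.35 and 1.29 in yghZ. In all 10 diets argk-1 was above the median of all genes under TMM, plain totals and TPM.

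argk-1 varied more than most of the 7955 genes whose mean was at least 5 CPM, both between diets and within them. The SD of its log2 CPM over the 33 libraries was 1.11, where the median of these genes was 0.53 and 5.37% of them had a larger one. Differences between diets made up 64.4% of its variance, against 36.7% for the median gene. Since argk-1 was picked for its differences between diets, nothing is read from its place in SD or in this share. Within diets its pooled SD on the log2 scale was 0.80, against 0.51 for the median gene. The widest diets were ypdF, with a highest library 6.61 times the lowest, and purH, with 6.39 times, whereas the yjgU libraries differed by 1.11 times.

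Genes next to argk-1 on chromosome V were among those that tracked it most closely over the 33 libraries. To its left lie cth-1 (V, 16100680 to 16102750, plus strand), which encodes a cystathionine gamma-lyase, an enzyme that splits cystathionine to make cysteine, then str-7 (V, 16097824 to 16099541, minus strand), of the str family of chemoreceptor genes, then F22B8.7 (V, 16094584 to 16097320, plus strand). The gap between cth-1 and argk-1 is 1143 bases. Among all 14696 genes tested, F22B8.7 had the highest Spearman rho with argk-1 over the 33 libraries (0.91), str-7 ranked 2 (0.89) and cth-1 ranked 4 (0.86). These values describe libraries that share their RNA preparation and depth, and they carry no p.

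cth-1 was the most abundant of the 4 genes. Its BW25113 libraries held 39.8, 30.0 and 20.5 CPM, its torY libraries 101, 100 and 195, and its yccU libraries 144, 116 and 119. In edgeR's quasi-likelihood test over all genes, cth-1 rose in torY, from 30.1 ± 9.68 to 132 ± 54.6 CPM (SD, n = 3 each), where 9.66% of all genes rose. This is 2.13 on the log2 scale (SE 0.59, edgeR adjusted p = 0.0242). In yccU, at 126 ± 15.4 CPM (SD, n = 3), the log2 fold change was 2.06 (SE 0.59) and missed the threshold of 0.05 (edgeR adjusted p = 0.0513), and 2.5% of all genes rose there. The torY call was lost without BW25113 replicate 2 (log2 fold change 2.13, adjusted p = 0.0922), BW25113 replicate 3 (1.92, 0.0791) or torY replicate 3 (1.74, 0.104). In yccU cth-1 passed in edgeR with a replicate block (adjusted p = 0.0372), with the 6 libraries alone (0.0022) and without yccU replicate 2 (0.0303), and in DESeq2 (0.0083).

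In each of the other 8 diets the same test called 0 of 14696 genes (0%), so cth-1 was not called there. Its mean was above BW25113 in all 10 diets, from 1.53 times in ycdC to 4.39 times in torY. In 6 diets its lowest library was above the highest BW25113 library, and these were the 6 diets in which argk-1 showed that gap. By CPM the gap was seen on torY in 25.5% of the genes tested, with 19.2% in yccU, 15.1% in yjgU, 9.05% in yghZ, 5.74% in ycgJ and 2.47% in iaaA, and no test was made of this overlap. On purH its libraries held 35.1, 131 and 167 CPM, with replicate 1 low as in argk-1. On ypdF they held 22.1, 97.2 and 37.3, and on crl 29.9, 87.8 and 22.0, with replicate 2 high in both diets, again as in argk-1.

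str-7 was a gene of low level. Its BW25113 libraries held 1.92, 0.552 and 0.465 CPM, from 9 to 33 expected counts, and its torY libraries 2.14, 4.91 and 7.41 CPM. It rose in torY, from 0.980 ± 0.818 to 4.82 ± 2.63 CPM (SD, n = 3 each; log2 fold change 2.30, SE 0.64, edgeR adjusted p = 0.0256), and in yccU its log2 fold change of 2.15 (SE 0.64) did not pass (edgeR adjusted p = 0.0571). It passed there with a replicate block (adjusted p = 0.0414), with the 6 libraries alone (0.0239), without yccU replicate 2 (0.0368) and in DESeq2 (0.0127). The torY call was lost without BW25113 replicate 2 (log2 fold change 2.02, adjusted p = 0.111), BW25113 replicate 3 (1.96, 0.0870) or torY replicate 3 (1.85, 0.110). On purH str-7 held 1.75, 5.86 and 6.50 CPM, on ypdF 0.783, 3.13 and 0.882, and on crl 1.72, 2.82 and 0.779, so the library that stood out in argk-1 stood out here as well.

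F22B8.7 was named for its likeness to argk-1 and is described without a test. Its BW25113 libraries held 23.7, 13.8 and 10.0 CPM, and its means in the mutant diets ran from 1.247 times BW25113 in ycdC to 2.36 times in yccU. It spanned 4.81-fold over the libraries, less than the 12.4-fold of argk-1. Its expected counts were not whole numbers in any of the 33 libraries, whereas those of argk-1, cth-1 and str-7 were whole in all of them; no source used here says how the authors' counting treats reads shared between genes.

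The likeness was not only one of high and low diets. After the mean of each diet was taken away, the Pearson r of the deviations from argk-1 was 0.89 for F22B8.7, 0.85 for str-7 and 0.78 for cth-1. In the 30 mutant libraries alone rho was 0.90, 0.87 and 0.83, and in the 32 libraries without purH replicate 1 it was 0.91, 0.89 and 0.86. Over the 11 diet means rho was 0.86, 0.86 and 0.87, and many other genes lay closer there. Among genes of at least 5 CPM, F22B8.7 ranked 68 and cth-1 ranked 54 by diet means, where the highest rho was 0.96. In the 30 mutant libraries F22B8.7 ranked 1 and cth-1 ranked 11. Without the libraries farthest from the median of argk-1, torY replicate 3 and yccU replicate 1, Pearson's r was 0.90, 0.86 and 0.84, against 0.92, 0.88 and 0.86 with all 33. Among the 4 genes the rho of any pair ran from 0.81 (F22B8.7 with cth-1) to 0.92 (F22B8.7 with str-7). str-7 lies on the other strand from its neighbours without overlapping them in the annotation, and no source used here says whether the counting used strand.

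**Figure D2:**
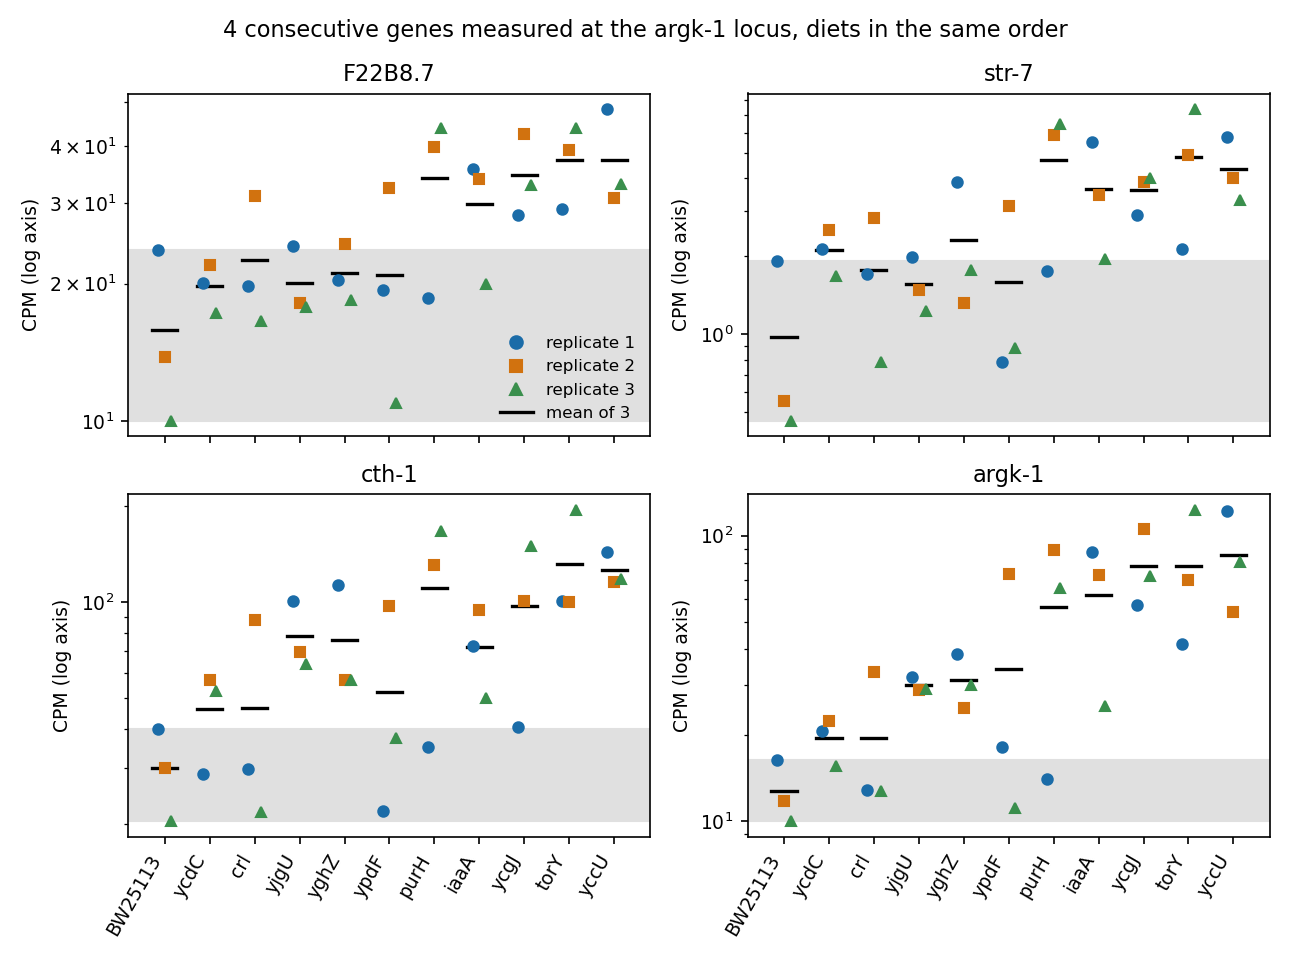
Levels (CPM, log axes) of F22B8.7, str-7, cth-1 and argk-1, in their order along chromosome V, in each of the 33 libraries, with diets in the order of mean argk-1. Points are libraries by replicate number, black bars are means of 3 and grey bands are the range of BW25113. By CPM, in all 4 genes replicate 1 of purH lies below, and replicate 2 of ypdF and of crl above, the other libraries of its diet. By deposited TPM, F22B8.7 was not lowest in replicate 1 of purH, with 19.7 there and 18.9 in replicate 3.

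On the right side of argk-1 no close neighbour could be compared. The next annotated protein-coding genes there are srxa-16 and str-25, both named as chemoreceptor families, and str-103. They reached at most 2 expected counts in any library and were not tested. The next measured gene is skr-3 (V, ending at 16122649), of the Skp1-related family of ubiquitin ligase subunits, at 13.3 CPM with a rho of 0.45. Of 72 annotated protein-coding genes within 100 kb of argk-1 on either side, a window set after the values were seen, 57 were in the files and 26 were tested. Among the 13 of these whose mean was at least 5 CPM the median rho was -0.30, and apart from F22B8.7 and cth-1 none was above the 0.45 of skr-3. Of the genes in the window below 5 CPM, best-12 and F44G3.7 had a rho of 0.78 and 0.79 at 0.165 and 0.777 CPM.

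**Figure D3:**
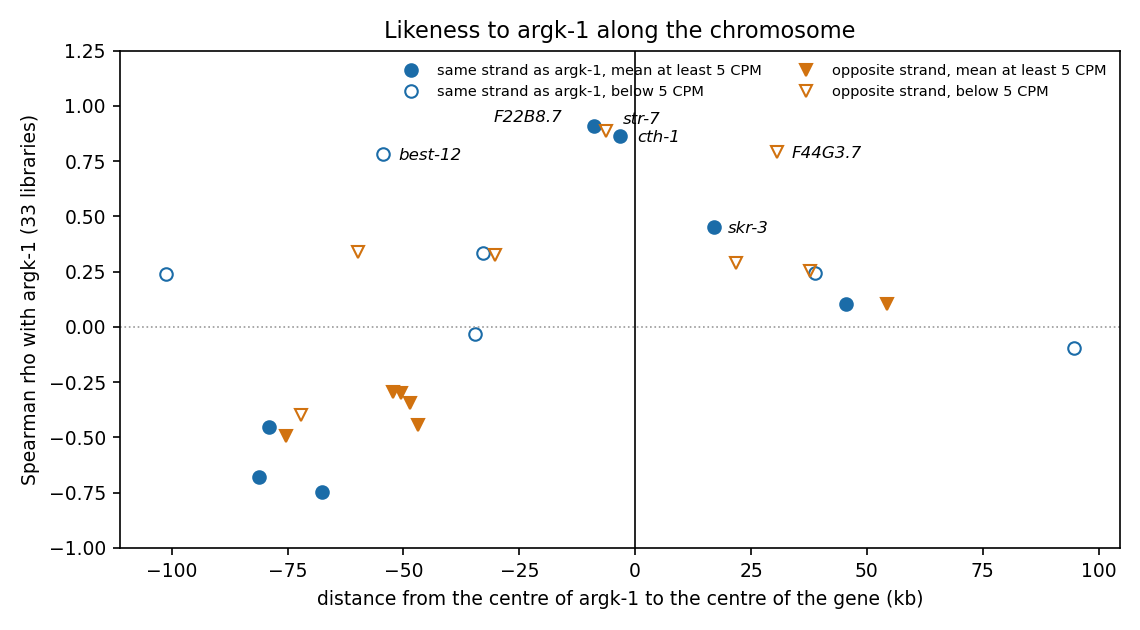
Spearman rho with argk-1 over 33 libraries (vertical axis) for the 26 tested protein-coding genes within 100 kb, by distance from the centre of argk-1 in kb (horizontal axis). Circles are genes on the strand of argk-1 and triangles those on the other, filled where the mean is at least 5 CPM; F22B8.7, str-7 and cth-1, just left of the centre, lie at 0.86 to 0.91 and skr-3, the nearest tested gene on the right, at 0.45.

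*C. elegans* has 4 further genes of the phosphagen kinase family in the list used here, and argk-1 was a minor transcript among them. Per transcript length, F46H5.3 (X, 7230705 to 7238662) was the most abundant, with a median of 2416 TPM over the 33 libraries and a range of 752 to 3276. The medians of ZC434.8 (I, 10348055 to 10349369) and W10C8.5 (I, 2853970 to 2855732) were 102.6 and 91.3 TPM. That of argk-1 was 24.2 TPM, with a range of 6.74 to 125, and that of F32B5.1 (I, 2700420 to 2702158) was 4.1 TPM. F46H5.3 made up 85.0% to 94.5% of the family's summed TPM in a library, and argk-1 between 0.224% and 3.45%.

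The abundant relatives did not pass the test in any diet. F46H5.3 stood at 2680 ± 278 TPM on BW25113, 2999 ± 269 on torY and 2740 ± 38.7 on yccU (SD, n = 3 each). By CPM, the scale of the fold changes, F46H5.3 stood at 4843 ± 1134, 4840 ± 1171 and 4340 ± 728 (SD, n = 3 each). Its log2 fold change was -0.00089 in torY (SE 0.54, edgeR adjusted p = 0.999) and -0.16 in yccU (SE 0.54, edgeR adjusted p = 0.860), and the sign in torY changed with the size factors. W10C8.5 stood at 148 ± 26.0 CPM on BW25113 and 211 ± 28.6 on torY (SD, n = 3 each; log2 fold change 0.51, SE 0.42, edgeR adjusted p = 0.368). ZC434.8 stood at 162 ± 35.7 and 143 ± 35.2 CPM (SD, n = 3 each; log2 fold change -0.18, SE 0.43, edgeR adjusted p = 0.777).

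F32B5.1, the least abundant member, was the family member that rose. Its BW25113 libraries held 0.94, 1.5 and 2.96 TPM and its torY libraries 13.7, 15.8 and 15.3, a gap upwards that 24.3% of all genes tested showed by TPM. The change in torY was 2.97 on the log2 scale (SE 0.91, edgeR adjusted p = 0.0343). On yccU it held 19.1, 4.98 and 13.5 TPM, a log2 fold change of 2.61 (SE 0.90) that did not pass (edgeR adjusted p = 0.0794). It passed there with a replicate block (adjusted p = 0.0459), with the 6 libraries alone (0.0036), without yccU replicate 2 (0.0429) and in DESeq2 (0.0200). The torY call was lost in 5 of the 6 fits that left out 1 library, with adjusted p between 0.0393 and 0.115 over the 6, and held without torY replicate 2. In the other 8 diets F32B5.1 did not pass, and its fold changes ran from -1.01 in ycdC to 1.74 in yjgU.

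Over the 33 libraries the rho with argk-1 was 0.78 for F32B5.1 and 0.53 for W10C8.5, against -0.03 for F46H5.3 and 0.0037 for ZC434.8. Expected counts of F32B5.1 and of W10C8.5 were whole numbers in 1 of 33 libraries, and those of F46H5.3 and ZC434.8 in all 33. Reads of these related genes may be shared in counting, so the levels of F32B5.1 and W10C8.5 are uncertain to that extent.

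**Figure D4:**
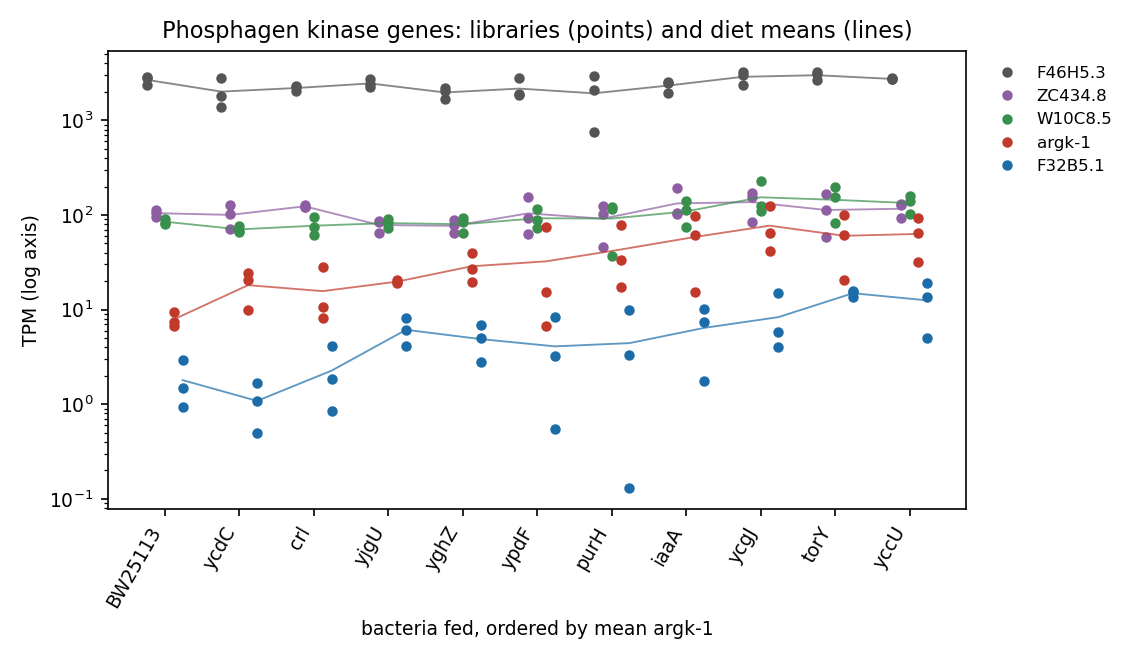
TPM (log axis) of the 5 phosphagen kinase genes in each of the 33 libraries, with diets ordered by mean argk-1 in CPM. Points are libraries and lines join diet means; F46H5.3 stays between 752 and 3276 TPM in every library while argk-1 goes from 6.74 to 125 and F32B5.1 from 0.13 to 19.1.

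Genes around arginine and energy were looked at in 5 lists: the phosphagen kinases, enzymes that use or break down arginine, amino acid transporters, energy sensing by AMPK, TOR, S6 kinase and insulin signalling, and adenine nucleotide handling. Without argk-1, 72 of their members were tested. By edgeR's test 5 of them rose in torY, 5 fell and 62 did not pass, so 13.9% were called where 14.9% of all genes were (9.66% upwards and 5.26% downwards). In yccU 2 rose, 0 fell and 70 did not pass, so 2.78% were called where 2.62% of all genes were (2.5% upwards and 0.122% downwards). In the other 8 diets 0 members passed, as did 0 of all genes (0%) by edgeR in each of them; DESeq2 called 5 genes over those 8 diets, and the genes with an unadjusted p under 0.05 numbered from 150 in crl to 1054 in purH. These shares are close to those of all genes.

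Among the enzymes of arginine use, the risers belonged to the proline branch. alh-13, the orthologue of the human enzyme that makes pyrroline-5-carboxylate from glutamate, held 5.42, 7.11 and 8.27 CPM on BW25113, 24.7, 15.3 and 28.0 on torY and 26.4, 11.7 and 24.8 on yccU. It rose in torY (log2 fold change 1.71, SE 0.36, edgeR adjusted p = 0.0118) and in yccU (1.6, SE 0.36, edgeR adjusted p = 0.0318). The gene listed as M153.1, a pyrroline-5-carboxylate reductase that makes proline, held 5.89, 5.21 and 4.08 CPM on BW25113, 21.0, 12.4 and 21.3 on torY and 17.3, 7.77 and 18.9 on yccU. It rose in torY (1.85, SE 0.33, edgeR adjusted p = 0.0109) and in yccU (1.54, SE 0.33, edgeR adjusted p = 0.0305). In both genes all torY and yccU libraries were above all BW25113 libraries, a gap seen by CPM in 25.5% of the genes tested on torY and 19.2% on yccU, and yccU replicate 2 was the lowest of them.

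The member of the arginine list that fell was prmt-9, an arginine methyltransferase, from 36.7 ± 5.94 to 20.1 ± 3.77 CPM in torY (SD, n = 3 each; log2 fold change -0.86, SE 0.29, edgeR adjusted p = 0.0458). The other 13 of 16 members tested did not pass in torY, among them the ornithine aminotransferase oatr-1 (log2 fold change 0.43, SE 0.33) and the ornithine decarboxylase odc-1 (0.21, SE 0.46). Of all genes, 14.9% were called in torY. The median log2 fold change of the list was 0.08 in torY and -0.07 in yccU, against 0.0095 and -0.01 over all genes.

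Of 34 genes of energy sensing, 0 rose, 4 fell and 30 did not pass in torY, where 9.66% of all genes rose and 5.26% fell. In yccU 0 passed, where 2.62% of all genes were called. Of the 4 that fell in torY, those described here are pdk-1, aap-1 and let-363. They are a kinase that activates AKT (pdk-1, log2 fold change -1.3, edgeR adjusted p = 0.0399), the adaptor subunit of phosphoinositide 3-kinase (aap-1, -0.91, edgeR adjusted p = 0.0387) and the TOR kinase (let-363, -1.06, edgeR adjusted p = 0.0483). aak-2 (log2 fold change -0.19, SE 0.42) and rsks-1 (-0.46, SE 0.43) did not pass in torY. The median of the list was -0.48 in torY and -0.44 in yccU, against 0.0095 and -0.01 over all genes.

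Of 8 tested genes of adenine nucleotide handling, ant-1.3 and ant-1.4, isoforms of the mitochondrial ADP/ATP carrier, rose in torY and 6 did not pass. Of all genes, 9.66% rose there. ant-1.3 went from 1.24 ± 0.467 to 15.6 ± 3.57 CPM (SD, n = 3 each; log2 fold change 3.64, SE 1.05, edgeR adjusted p = 0.0277). ant-1.4 went from 1.05 ± 0.170 to 14.7 ± 4.04 CPM (SD, n = 3 each; 3.79, SE 1.26, edgeR adjusted p = 0.0435). The main isoform, ant-1.1, was far more abundant at 4588 ± 492 TPM on torY (SD, n = 3) and had a log2 fold change of -0.04 (SE 0.45). None of the 10 amino acid transporter genes passed in torY or yccU. Their median log2 fold change was 0.70 and 0.48, against 0.0095 and -0.01 over all genes. These carriers are close copies of each other, so reads may be shared between ant-1.3 and ant-1.4.

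The calls in these lists rested on few libraries. In torY the 10 called members became 3 without BW25113 replicate 1, 0 without BW25113 replicate 2, 3 without BW25113 replicate 3, 3 without torY replicate 1 and 1 without torY replicate 3. In yccU the 2 became 6 without yccU replicate 2 and 0 without any 1 of the other 5 libraries. prmt-9, let-363 and pdk-1 lost their call in all 6 fits, and M153.1 in torY only in the fit without BW25113 replicate 2 (adjusted p = 0.0717). In torY ant-1.3, ant-1.4 and aap-1 lost theirs in 5 of the 6 fits, with edgeR adjusted p up to 0.112, 0.135 and 0.145. The torY call of alh-13 was lost in 2 of the 6 (edgeR adjusted p up to 0.0717).

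Beyond the neighbours, the genes with the most similar pattern were taken from the 7955 genes whose mean reached 5 CPM. After F22B8.7, the highest rho belonged to asp-8 (0.86), of the aspartyl protease family, cth-1 (0.86), ifa-4 (0.85), an intermediate filament gene, T10E9.4 (0.84), Y69E1A.2 (0.83) and C50F4.8 (0.83). best-22 (0.83), of the bestrophin chloride channel family, cyp-33C8 (0.83), a cytochrome P450, and tag-297 (0.83) completed the 10. asp-8 stood at 31.8 ± 8.19 CPM on BW25113 (SD, n = 3) and at a mean of 212 on torY. cyp-33C8 stood at 4.48 ± 1.65 CPM on BW25113 (SD, n = 3) and at a mean of 45.9 on yccU. 5 of the 10 lie on chromosome V, which holds 16.6% of the genes compared. The neighbours F22B8.7 and cth-1 are among these 5, and no test was made of this share.

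Genes that ran opposite to argk-1 were tag-276 (-0.88), C05D9.7 (-0.87), ccch-5 (-0.84), C48B6.9 (-0.82) and psf-1 (-0.81), a subunit of the GINS complex of DNA replication. psf-1 stood at 44.01 ± 2.84 CPM on BW25113 (SD, n = 3) and at a mean of 19.2 on torY. In all, 30 genes had a rho of at least 0.8 and 6 a rho of -0.8 or lower, where the median gene had -0.22. Within diets, by deviations from the diet mean, the nearest were F22B8.7 (0.89), ifa-4 (0.82), cth-1 (0.78), pept-1 (0.77), a peptide transporter of the intestine, and nep-22 (0.76), of the neprilysin family of peptidases. F22B8.7, ifa-4 and cth-1 were in both lists. The choice of the 10 depended on the measure: 6 were shared with the 10 nearest by Pearson's r, 5 with those over the 30 mutant libraries and 1 with those over the 11 diet means.

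Several tissue and stage markers moved with argk-1 across the 33 libraries. The level of 9 sperm markers had a rho of 0.79 with argk-1, with all 9 members positive, and their summed level was 32.1 to 57.7 CPM on BW25113 and 4.70 to 389 on the mutant diets. The intestine list had a rho of 0.69 with 8 of 9 members positive, at 1713 to 2162 CPM on BW25113 and 523 to 3268 on the mutants. The molting list, genes of the cuticle and its renewal, had a rho of 0.66 with 18 of 23 members positive, at 144 to 423 CPM on BW25113 and 93.5 to 2946 on the mutants. Embryo and oocyte markers ran the other way. The embryo list had a rho of -0.65 with 0 of 8 members positive, at 105 to 131 CPM on BW25113 and 34.5 to 176 on the mutants. The oocyte list had a rho of -0.62 with 0 of 10 positive, at 13568 to 18429 CPM on BW25113 and 3049 to 17833 on the mutants.

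The remaining lists had smaller values. Spearman's coefficient was -0.37 for germline, 0.34 for neurons, 0.19 for body wall muscle and -0.20 for glia. Of 13 sperm markers listed, 9 had deposited values, and ssp-9, ssp-16, msp-10 and msp-142 had none. Values were also missing for asp-1 of the intestine list and ceh-51 of the embryo list. ver-1 of the glia list and end-3 of the embryo list did not pass the filter on low counts. No marker with deposited values was at 0 in every library. By edgeR, 13 of 23 molting markers and 4 of 9 sperm markers rose in torY. In the same diet 4 of 8 embryo, 2 of 10 oocyte, 1 of 8 germline and 1 of 15 glia markers fell. In yccU 11 molting markers and 1 sperm marker rose and 1 embryo marker fell. Of all genes tested, 9.66% rose and 5.26% fell in torY, and 2.5% rose and 0.122% fell in yccU. The marker lists were chosen with earlier results of these data known, so nothing is read from these shares.

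The diets with high argk-1 were not alike in these lists. On ycgJ and iaaA the argk-1 levels overlapped those on torY. The summed molting list stood there at 264 to 512 and 199 to 270 CPM, overlapping the 144 to 423 of BW25113. On torY it stood at 1075 to 2946. On yccU it stood at 331 to 2155 CPM, and the lowest of these, replicate 2, lay within the range of BW25113. On ycgJ the sperm list stood at 25.8 to 198 CPM and on iaaA at 35.0 to 151, against 229 to 389 on torY and 178 to 334 on yccU. edgeR called 0 of all 14696 genes on ycgJ and on iaaA (0%), so no marker was called there either. The part of these tissues and stages in the level of argk-1 was not tested.

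**Figure D5:**
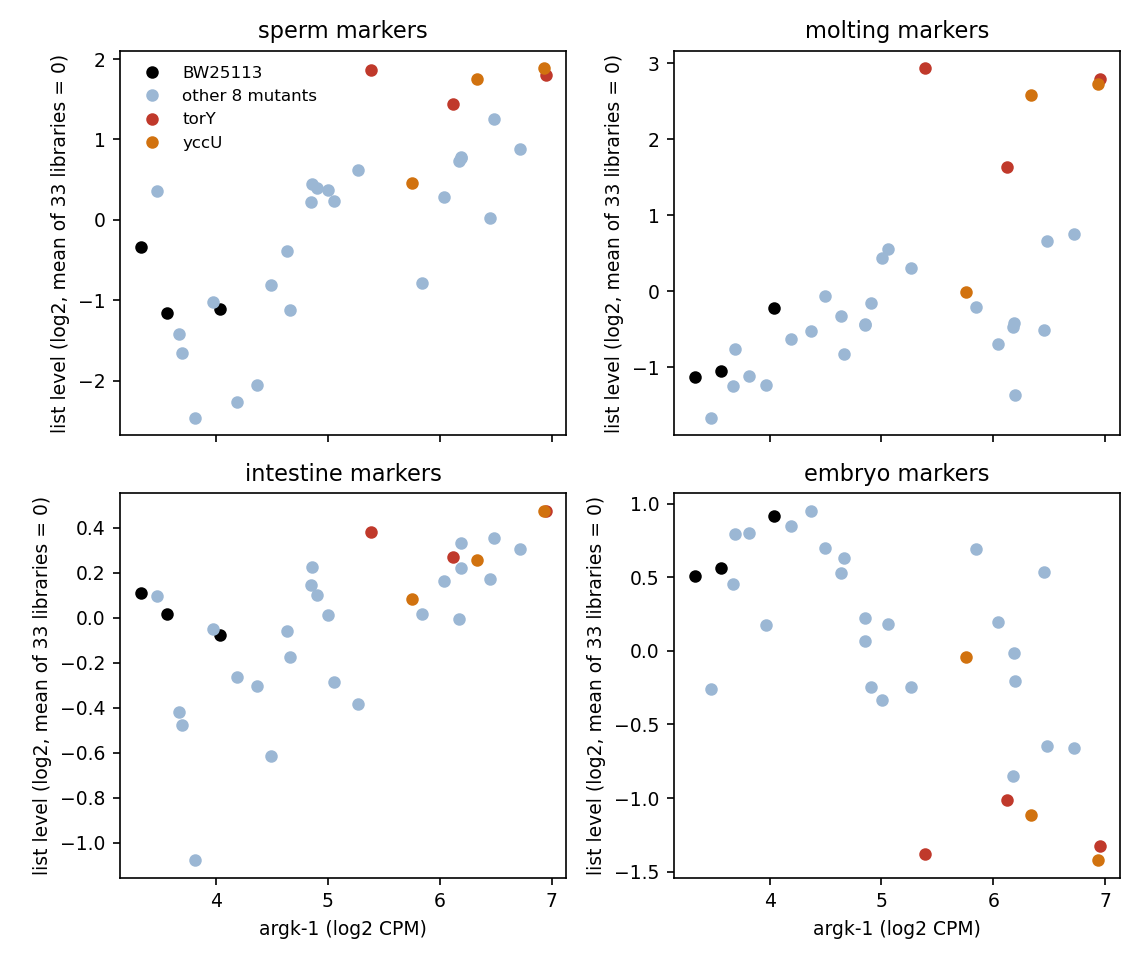
Level of 4 marker lists (vertical axis, mean log2 CPM of the members with the mean over 33 libraries set to 0) against argk-1 (horizontal axis, log2 CPM) in each of the 33 libraries. Colours mark BW25113, torY, yccU and the other mutants; sperm (rho 0.79), molting (0.66) and intestine (0.69) lists rise with argk-1 and the embryo list (-0.65) falls, and the highest molting levels belong to torY and yccU libraries.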

How the data were processed

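Per the file headers, the authors deposited an expected count and a TPM value for each of 18811 gene symbols in each of the 33 libraries. The submitters' processing notes list HISAT, StringTie, Bowtie2 and the build WBcel235 without saying which step each served. How reads were counted, and with which gene annotation, is not stated. Of the deposited expected counts, 7.78% to 10.0% per library were not whole, and these were rounded. Positions came from Ensembl release 115 on WBcel235, by symbol (18102) or locus name (536), and 173 symbols found none. Diets were taken from the sample titles.

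In R 4.3.3, edgeR 4.0.16 (filterByExpr, which left out 4115 genes, TMM, common dispersion 0.198) fitted the 33 libraries by diet. Each mutant was contrasted with BW25113 by the quasi-likelihood test, with Benjamini-Hochberg adjustment over all 14696 genes and a threshold of 0.05; SE is the absolute log2 fold change over the square root of F. log2 CPM used a prior count of 2. Alternatives were DESeq2 1.42.0, other size factors, no filter, a replicate block, 6 libraries at a time, leaving out each library, and the deposited TPM as log2(TPM + 1). On simulated torY counts with 14696 genes, 50 changed at each size, the fit recovered 8%, 78%, 96% and 98% of changes of 2-, 4-, 8- and 16-fold, with 6 calls among unchanged genes. The changed genes were drawn from those whose mean was at least 5 CPM, so the shares do not cover genes below it. No outlying library was simulated. No replicates looked like 1 library deposited again (smallest chi-square per degree of freedom 15.7 over 33 pairs).

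argk-1, the gene lists and the marker lists were chosen with earlier results of these data known. Named are the phosphagen kinases, called list members except 1 that is not reported here, the 10 highest and 5 lowest Spearman rho with argk-1 and the 5 highest r of deviations among genes of at least 5 CPM, and the annotated neighbours on either side (srxa-16, str-25, cth-1 and str-7). skr-3, best-12, F44G3.7, str-103 and the list members named without a call were chosen after their values were seen. Sequences were not used here.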

Additional observations from a re-analysis of the deposited data

How the results depend on the processing

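Counts of calls depended strongly on the fit. In torY the 2193 called genes became 3404 with DESeq2 and 3834 with the 6 libraries alone, and ran from 0 to 2118 when 1 library was left out, with 745, 0 and 578 without BW25113 replicates 1, 2 and 3. In yccU the 385 became 209 with no filter, 1843 with DESeq2 and 1641 with 6 libraries, and ran from 0 to 2177. In the other 8 diets the 0 became 5 with DESeq2 and 544 with 6 libraries, and ran from 0 to 1. The 10 called list members in torY became 17 with 6 libraries (0 to 9 with 1 library left out). The 2 in yccU became 7 with DESeq2 and 7 with 6 libraries (0 to 6). In the other 8 diets the 0 became 3 with 6 libraries.

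For argk-1, plain library totals gave 1.31 in ycdC, 3.21 in ycgJ and 1.96 in yghZ, and log2(TPM + 1) gave 1.03 in ycdC and 1.70 in yghZ. With 1 library left out the fold change ran from 0.0077 to 0.86 in crl and from 0.20 to 1.85 in ypdF. Among the 10 genes nearest to argk-1, 6 were shared by Pearson's r, 1 over diet means, 5 over the 30 mutant libraries and 7 without purH replicate 1, the last 2 chosen after seeing the data. F46H5.3 in torY changed sign to 0.0345 with RLE size factors, 0.0345 with DESeq2 and 0.13 with 6 libraries (-0.22 to 0.11 with 1 library left out). ZC434.8 in yccU changed to 0.0088, 0.0088 and 0.0852 (-0.26 to 0.15). The cause was not tested. With no filter prmt-9, aap-1 and ant-1.4 did not pass in torY, and prmt-9 and aap-1 did not with 6 libraries.

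By the replicate numbers of the titles, 12 of 30 same-number pairs with BW25113 had a correlation of deviations over 0.1. The range was -0.61 to 0.54, and yghZ was the 1 diet with all 3 over 0.1. Only pairs with BW25113 were looked at, so a batch shared among mutant diets could not be seen. Whether the replicate number marks a batch was not tested. With the number as a block, argk-1 in yghZ was 1.31, calls were 2670 in torY, 1169 in yccU and 0 in the other 8 diets, and called list members were 10, 4 and 0. The sequences of argk-1 and the search of its promoter for motifs were not run, for want of a sequence table.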

Other observations

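How often a gene's closest match in pattern is a chromosomal neighbour was counted after the values at argk-1 were seen. Of 7868 genes whose mean reached 5 CPM and whose position is known, 59 had their highest Spearman rho over the 33 libraries with a gene within 10 kb, or 0.750%, and argk-1, with F22B8.7 at a gap of 6573 bases, is among them. Over 4171 pairs of adjacent genes the median rho was 0.23, and over the 2289 of these on the same strand it was 0.25. Of the same-strand pairs, 5.72% had a rho at least as high as that of cth-1 with argk-1.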
